A study of Homo sapiens with 4 samples.

Results

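The 10 genes described here encode the cyclins and kinases that drive cells through mitosis, and an activator of the ubiquitin ligase that ends it. They are the kinase CDK1, its cyclins CCNA2, CCNB1 and CCNB2, the kinases PLK1, AURKA, AURKB, NEK2 and MELK, and CDC20. Members are found by gene symbol, and each symbol matched 1 of the 60617 genes in the deposited count files. All 10 passed the filter on low counts and were among the 17207 genes tested. The RNA came from spheres of U87MG, an established human glioblastoma cell line, kept in DMEM/F12 with EGF and bFGF (20 ng/ml each), N2 supplement and 2% B27. The untreated group and the abemaciclib group each had 2 poly-A libraries, collected at day 14. Abemaciclib is a small-molecule inhibitor of CDK4 and CDK6, the kinases that start the cell cycle by phosphorylating the retinoblastoma protein. No dose or vehicle is given in the labels. Nothing in the labels says that the libraries of a group came from separate cultures. Each p-value therefore reflects the spread among these 4 libraries alone, which may be technical. The fit shares information on that spread across genes, so a p-value does not rest on the values of its own gene alone.

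Entry into mitosis depends on CDK1 bound to cyclin B, with cyclin A acting earlier in G2. PLK1 and Aurora A help to switch this complex on, Aurora B works on chromosome attachment and cell division, and NEK2 separates the centrosomes. CDC20 then activates the anaphase-promoting complex (APC/C), which marks cyclin B for destruction so that cells leave mitosis. MELK is a kinase of the AMPK-related family that is abundant in dividing cells and has been studied in glioma stem cells. Transcripts of these genes normally rise together in G2 and mitosis and are low in resting cells. Their promoters often carry a CHR element and CCAAT boxes, which bind the DREAM or MuvB complexes and NF-Y.

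The libraries held 23684257 to 33418071 counts, and the replicates of each group differed by more than sampling noise (chi-square per degree of freedom of 3.56 between untreated replicates and 1.95 between abemaciclib replicates). The share of mitochondrially encoded transcripts was 4.27% and 4.66% untreated and 11.8% and 11.7% with the drug. All 8 glioma markers were detected in every library. Their summed level was 46035 and 46154 CPM (counts divided by the library total and scaled to a common size) untreated and 17065 and 17186 CPM after the drug. The 8 immune markers included MS4A1, at 0 counts in every library, and the summed level of the list was 504.3 to 515.1 CPM untreated and 1100 to 1125 CPM after the drug. Nearly all of that sum was CD68, which encodes a lysosomal protein. The 6 epithelial markers summed to 2.54 to 2.80 CPM untreated and 3.55 to 4.00 CPM after the drug, and KRT20 was at 0. The 6 endothelial markers summed to 25.6 to 28.2 CPM untreated and 26.98 to 27.7 CPM after the drug, with PECAM1 lower (9.78 to 1.14 TMM-scaled CPM) and KDR higher (8.39 to 14.97 CPM) within that sum. The 8 neuronal and oligodendrocyte markers summed to 51.3 to 52.4 CPM untreated and 61.9 to 66.0 CPM after the drug, with MOG and MAG at 0, SLC17A7 lower (4.75 to 0.195 TMM-scaled CPM) and SNAP25 higher (35.5 to 54.1 CPM). The part of these marker levels in the results below was not tested. In bulk RNA, fewer cells in mitosis and less of a transcript per cell cannot be told apart.

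The mitotic genes did not move as 1 block in the abemaciclib libraries of day 14. Transcripts of CDK1, CCNA2, CCNB2, PLK1, AURKB, NEK2 and CDC20 fell, those of CCNB1 and MELK rose, and AURKA did not pass the test. At an adjusted p under 0.05 (edgeR quasi-likelihood, Benjamini-Hochberg over every gene tested), 7 of 10 were lower and 2 of 10 higher. The same rule called 77.3% of all tested genes, 39.3% lower and 38% higher. The drop was at least 2-fold in 5 of the 10 genes (CDK1, CCNA2, AURKB, NEK2 and CDC20), against 17.4% of tested genes. That count depends on single libraries, because 4 genes lie close to a 2-fold drop, and it was 3 (CCNB2, AURKB and NEK2) without abemaciclib replicate 2. A rise of at least 2-fold was seen in MELK alone, against 13.8% of tested genes. The median log2 fold change of the 10 genes was -1.01, and that of all tested genes was -0.01. The libraries of both groups did not overlap in any of the 10 genes, 8 of them lower and 2 higher. Such a gap was present in 87.9% of the tested genes, 44.5% lower and 43.4% higher. With the mitochondrially encoded genes left out of the totals, the same 7 genes were lower and the same 2 higher, with log2 fold changes from -2.26 (AURKB) to 1.34 (MELK).

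**Figure D1:**
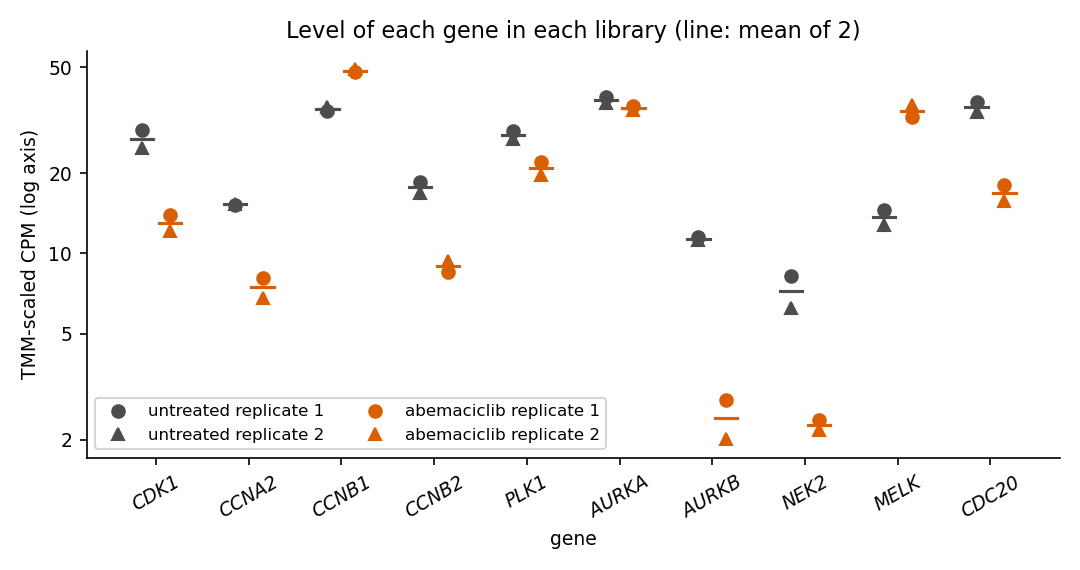
Level of each of the 10 genes in each of the 4 libraries, in TMM-scaled CPM on a log axis, with untreated libraries in grey, abemaciclib libraries in orange and a line at the mean of 2. The orange points of CCNB1 and MELK sit above the grey ones, those of AURKA sit just under them (34.5 and 35.7 against 36.8 and 38.6), and those of AURKB and NEK2 sit furthest below.

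The promoters of some of the 10 genes are shown, and a link between their letters and the direction of change was not tested. RefSeq windows (GRCh38.p14) of 250 bases before to 50 after a start site matched 9 of the 10 genes, with 11 windows in all because CDK1 and AURKB have more than 1 start, and AURKA was not matched. The windows below run from 150 bases before to 30 after the start, read 5′ to 3′ on the gene's strand. Capitals mark each match, on either strand, to CCAAT (the NF-Y box, ATTGG on the other strand), to TTTGAA or TTCGAA (the CHR core, TTCAAA for the first of these on the other strand), or to an E2F site (TTTCGCGC, TTTGGCGC, TTTCCCGC or TTTGCCGC). Of the genes shown, CCNB2, CDC20, CCNA2, AURKB and NEK2 fell, and CCNB1 and MELK rose. For AURKB the window with the more upstream start is printed, and the annotated span of the gene (8204733 to 8210600) begins further upstream.
CCNB2 (chr15:59104996-59105175, plus strand): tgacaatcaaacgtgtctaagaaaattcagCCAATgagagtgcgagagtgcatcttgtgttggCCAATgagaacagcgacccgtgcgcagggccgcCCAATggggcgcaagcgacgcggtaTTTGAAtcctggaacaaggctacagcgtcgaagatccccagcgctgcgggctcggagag
CDC20 (chr1:43358831-43359010, plus strand): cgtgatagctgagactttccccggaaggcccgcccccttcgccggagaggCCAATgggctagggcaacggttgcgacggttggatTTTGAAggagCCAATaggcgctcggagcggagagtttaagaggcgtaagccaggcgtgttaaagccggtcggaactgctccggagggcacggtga
CCNA2 (chr4:121823854-121824033, minus strand): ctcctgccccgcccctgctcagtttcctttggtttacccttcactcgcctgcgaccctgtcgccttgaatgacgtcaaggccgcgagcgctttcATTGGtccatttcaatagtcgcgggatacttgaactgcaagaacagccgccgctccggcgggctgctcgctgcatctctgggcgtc
AURKB (chr17:8210220-8210399, minus strand): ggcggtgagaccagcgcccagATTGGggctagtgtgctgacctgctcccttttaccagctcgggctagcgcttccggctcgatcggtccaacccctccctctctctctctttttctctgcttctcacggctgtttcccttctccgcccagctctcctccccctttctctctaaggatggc
NEK2 (chr1:211675592-211675771, minus strand): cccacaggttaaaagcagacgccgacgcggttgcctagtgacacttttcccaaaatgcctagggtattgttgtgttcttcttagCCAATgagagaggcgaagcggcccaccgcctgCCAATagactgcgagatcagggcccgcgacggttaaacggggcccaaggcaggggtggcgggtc
CCNB1 (chr5:69167000-69167179, plus strand): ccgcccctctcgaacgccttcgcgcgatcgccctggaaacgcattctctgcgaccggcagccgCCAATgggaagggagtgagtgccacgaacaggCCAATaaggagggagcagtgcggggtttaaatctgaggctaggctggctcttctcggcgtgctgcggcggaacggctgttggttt
MELK (chr9:36572745-36572924, plus strand): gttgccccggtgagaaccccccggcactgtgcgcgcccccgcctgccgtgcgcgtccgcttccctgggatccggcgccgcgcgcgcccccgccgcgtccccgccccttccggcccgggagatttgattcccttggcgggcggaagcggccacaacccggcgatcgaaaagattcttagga

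In the full windows, a CCAAT match was present in 8 of the 9 genes, or 10 of their 11 windows. The share was 34.6% of the 35116 promoters of the same length, each counted as a single window. A searched CHR form (TTTGAA or TTCGAA) was in 4 of the 9 genes and 5 of the 11 windows, against 16.4% of promoters. The 4 genes (CDK1, CCNB2, PLK1 and CDC20) fell, as did 7 of all 10. Of the 5 genes without either form, CCNA2, AURKB and NEK2 also fell, and CCNB1 and MELK rose. Other forms of the CHR were not searched, so these 5 genes may still carry one. The searched E2F letters were present in 1 gene, CDK1 (2 of the 11 windows), against 3.31% of all promoters. Other forms of the E2F site were not searched, so the remaining genes may still carry one. CCNB2 had the most CCAAT matches, 4, of which 3 lie in the stretch printed above, with a CHR core 29 to 24 bases before the start. CCNB1 had 2 CCAAT matches and neither searched CHR form. MELK had none of the searched letters in its window, and a match or its absence is a description of the window and not of binding. With a shorter window of 150 bases before to 50 after the start, the same counts of 8, 4 and 1 genes were obtained. The shares of all promoters were then 26.5%, 10.2% and 2.33%.

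CDK1, the kinase at the centre of mitotic entry (ENSG00000170312, GRCh38 chromosome 10, 60778331 to 60794852), stood at 29.1 and 24.9 TMM-scaled CPM in the untreated libraries and at 14.0 and 12.1 CPM after abemaciclib. Both treated libraries lay below both untreated ones. The log2 fold change of -1.05 ± 0.09 (SE) had an edgeR adjusted p of 2.16e-11, so that 16.7% of tested genes had a more negative value. The mean fell from 26.97 ± 2.97 to 13.0 ± 1.29 CPM (SD, n = 2).

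Its partners split. CCNA2, cyclin A2 of S phase and G2 (ENSG00000145386, chromosome 4, 121816444 to 121823933), had 15.2 and 15.3 CPM untreated and 8.10 and 6.82 CPM after the drug. Its log2 fold change of -1.05 ± 0.10 (edgeR adjusted p = 1.49e-10) was the same to 2 decimals as that of CDK1. CCNB2, the B-type cyclin linked to the Golgi (ENSG00000157456, chromosome 15, 59105078 to 59125045), had 18.5 and 16.9 CPM untreated and 8.52 and 9.39 CPM treated. It fell by 0.97 ± 0.10 on the log2 scale (edgeR adjusted p = 1.15e-10), just short of 2-fold. CCNB1, the main B-type cyclin of mitotic entry (ENSG00000134057, chromosome 5, 69167010 to 69178245), moved the other way. It had 34.1 and 35.4 CPM untreated and 47.9 and 49.1 CPM after the drug, with an SD under 1 CPM in each group. Its log2 fold change was 0.48 ± 0.05 (edgeR adjusted p = 1.40e-09), a 1.39-fold ratio of the means.

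The 2 B-type cyclins can also be set against each other within a library, which removes the scaling between libraries. Per kilobase of exon, CCNB1 stood at 2.02 and 2.29 times CCNB2 in the untreated libraries and at 6.15 and 5.73 times CCNB2 after the drug. Against CDK1, CCNB1 went from 1.80 and 2.19 to 5.27 and 6.22. CCNA2 against CDK1 stayed within 0.736 to 0.866 in all 4 libraries. These ratios, 8 in all, were chosen with the fold changes known, and an exact two-sided permutation test of 2 against 2 libraries cannot go below p = 0.333, so they are given as values.

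**Figure D2:**
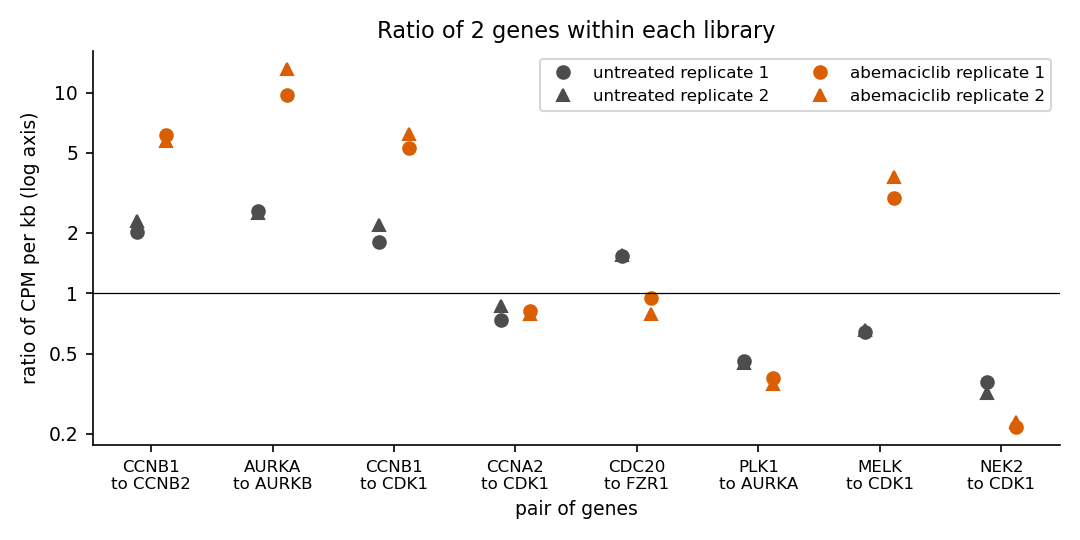
Ratio of the levels per kilobase of 2 genes within each library, on a log axis, for 8 pairs, with untreated libraries in grey and abemaciclib libraries in orange. The ratio of AURKA to AURKB was 2.58 and 2.52 untreated and 9.68 and 13.1 after the drug, while the ratio of CCNA2 to CDK1 overlapped between the groups.

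The Aurora kinases also split. AURKB, the kinase of the chromosomal passenger complex (ENSG00000178999, chromosome 17, 8204733 to 8210600), had 11.5 and 11.2 CPM untreated and 2.82 and 2.01 CPM after the drug, from 68 counts in each treated library. It was the gene of the 10 with the most negative log2 fold change, -2.26 ± 0.15 (edgeR adjusted p = 5.96e-15), and 6.03% of tested genes had a lower one. AURKA, the kinase of centrosomes and spindle poles (ENSG00000087586, chromosome 20, 56369389 to 56392337), had 38.6 and 36.8 CPM untreated and 35.7 and 34.5 CPM treated. Its log2 fold change of -0.10 ± 0.06 did not pass the test (edgeR adjusted p = 0.098), and it ranged from -0.14 to -0.05 over the alternatives tried. AURKA stood at 2.58 and 2.52 times AURKB per kilobase in the untreated libraries and at 9.68 and 13.1 times after the drug.

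PLK1, which acts from mitotic entry to cell division (ENSG00000166851, chromosome 16, 23677656 to 23690367), had 28.7 and 26.9 CPM untreated and 21.97 and 19.7 CPM after the drug. The drop was the smallest of the 7 that passed the test, at -0.42 ± 0.07 on the log2 scale (edgeR adjusted p = 4.84e-06). NEK2, the centrosome kinase (ENSG00000117650, chromosome 1, 211658657 to 211675630), had 8.26 and 6.23 CPM untreated and 2.37 and 2.18 CPM treated. Its untreated libraries differed more from each other than those of any other of the 10 genes in proportion, yet both lay above the treated ones. The log2 fold change was -1.67 ± 0.17 (edgeR adjusted p = 3.19e-10). CDC20, the APC/C activator of metaphase (ENSG00000117399, chromosome 1, 43358955 to 43363203), had 37.1 and 33.9 CPM untreated and 18.0 and 15.8 CPM after the drug. It fell by 1.08 ± 0.07 on the log2 scale (edgeR adjusted p = 3.02e-14), a drop of similar size to those of CDK1 and CCNA2.

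MELK (ENSG00000165304, chromosome 9, 36572862 to 36677683) had 14.6 and 12.8 CPM untreated and 32.5 and 36.1 CPM after abemaciclib. Its treated libraries stood at more than 2 times the level of either untreated one. The log2 fold change was 1.34 ± 0.08 (edgeR adjusted p = 5.61e-16), and 91.0% of tested genes had a lower value. The mean went from 13.7 ± 1.24 to 34.3 ± 2.51 CPM (SD, n = 2), a 2.51-fold ratio. Per kilobase MELK went from 0.638 and 0.655 times CDK1 to 2.97 and 3.79 times CDK1.

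**Figure D3:**
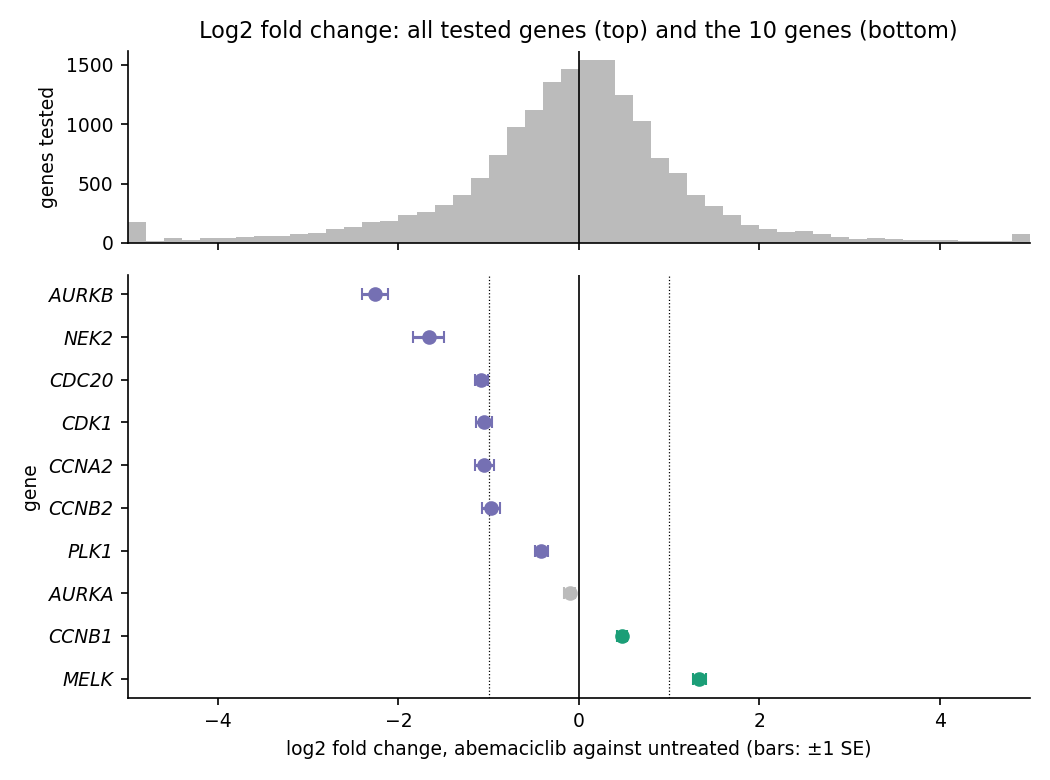
Log2 fold change, abemaciclib against untreated, for all 17207 tested genes as a histogram (top, values beyond the axis collected in the end bars) and for the 10 genes with bars of 1 SE (bottom, purple lower, green higher, grey not past the test). AURKB is lowest at -2.26 and MELK highest at 1.34, and dotted lines mark 2-fold changes.

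Levels of different genes were compared per kilobase of the merged exons of GENCODE release 29, which overstates the length where long transcripts are rare. In untreated spheres the order was CDC20 (17.4 CPM per kb), CCNB1 (13.6), AURKA (12.9), CDK1 (6.86), CCNB2 (6.32), PLK1 (5.84), CCNA2 (5.46), AURKB (5.06), MELK (4.43) and NEK2 (2.34). The library values of CDK1 and CCNB2 overlapped, as did those of CCNB2 and PLK1, and no other neighbours in that order did. After abemaciclib the order was CCNB1 (18.9 CPM per kb), AURKA (11.99), MELK (11.1), CDC20 (8.28), PLK1 (4.38), CDK1 (3.32), CCNB2 (3.20), CCNA2 (2.67), AURKB (1.08) and NEK2 (0.735). There only CDK1 and CCNB2 overlapped among neighbours. MELK went from the ninth place to the third, and CDC20 from the first to the fourth. The summed share of the 10 genes among all counts was 0.0232% and 0.0216% untreated and 0.0195% and 0.0191% after the drug.

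**Figure D4:**
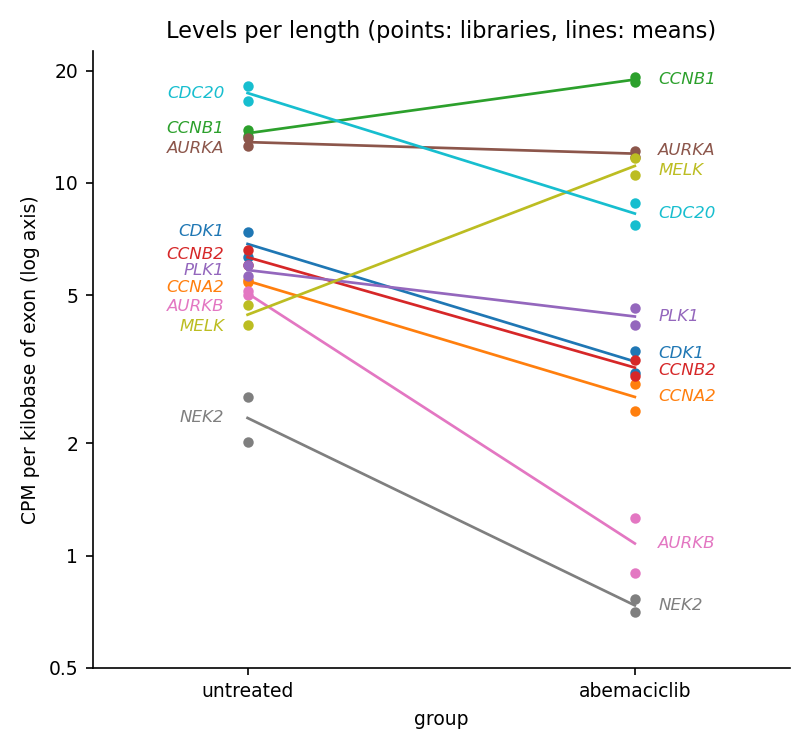
Level per kilobase of exon for the 10 genes in untreated and abemaciclib libraries, on a log axis, with a point for each library and a line between the group means. The lines of MELK (4.43 to 11.1) and CCNB1 (13.6 to 18.9) go up, and that of AURKB (5.06 to 1.08) goes down most steeply.

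Some of these values carry a doubt that replicate spread does not show. Exons of CCNA2 overlap those of the opposite-strand gene EXOSC9 by 254 bases. Exons of PLK1 overlap those of AC008870.3 by 553 bases and of ERN2 by 42 bases, also on the opposite strand. Whether the counting used strand is not given in the sources used here. EXOSC9 itself had 562 and 652 counts untreated and 369 and 540 after the drug, and AC008870.3 had 14 to 39. Processed copies of AURKA, CCNB2, NEK2 and CDC20 are listed in the files. CDC20P1 had 2 to 11 counts per library, AURKAP1 had 11 counts in abemaciclib replicate 1 and 0 elsewhere, and the other 4 had 0 or 1. AURKA was the only one of the 10 with fractional counts, in 2 libraries.

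The genes that control CDK1 did not follow it as a group. Of 14 tested, 4 were higher, 4 lower and 6 not past the test, with a median log2 fold change of 0.03. Among all tested genes 38% were higher and 39.3% lower, the shares to set beside this and every later list. Scaled by library totals alone, the split was 7 higher and 3 lower. The CDC25 phosphatases, which remove the inhibitory phosphates from CDKs, went apart. CDC25C, the mitotic form, fell from 3.67 ± 0.378 to 1.5 ± 0.236 CPM (SD, n = 2, log2 fold change -1.32 ± 0.22). CDC25B fell by 0.77 ± 0.04, and CDC25A, the form active at the start of S phase, rose by 0.73 ± 0.15. CCNF, cyclin F of an SCF ubiquitin ligase, fell from 9.03 ± 1.11 to 4.21 ± 0.261 CPM (-1.09 ± 0.13). These 4 genes had an edgeR adjusted p of 7.29e-05 or less.

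Partners of the Aurora kinases and PLK1 numbered 16, of which 9 were lower, 3 higher and 4 without a call, with a median of -0.12. With library totals alone the split was 7 lower and 5 higher. BIRC5, survivin of the chromosomal passenger complex, fell from 33.6 ± 1.12 to 20.5 ± 0.55 CPM, or by 0.72 ± 0.07 on the log2 scale (edgeR adjusted p = 2.71e-11). That is a smaller drop than that of AURKB, with which it works, though the difference was not tested. GTSE1, a microtubule-binding protein of G2 (-0.77 ± 0.10), and the mitotic kinase PBK (-0.69 ± 0.12) also fell, with an edgeR adjusted p of 3.48e-06 or less. HASPIN, the histone kinase that recruits Aurora B, rose by 0.56 ± 0.23 (edgeR adjusted p = 0.031). That call was lost with DESeq2 (adjusted p = 0.16) and without untreated replicate 2 (0.234) or abemaciclib replicate 1 (0.108).

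Most subunits of the APC/C itself rose, unlike CDC20. Of 14 subunits 10 were higher and 4 lower, with a median of 0.25, where 38% of all tested genes were higher and 39.3% lower. The rise was at least 2-fold in 1 subunit, ANAPC15, against 13.8% of tested genes. ANAPC15 rose from 4.69 ± 0.754 to 10.8 ± 1.55 CPM (1.22 ± 0.13), and ANAPC7 from 37.2 ± 1.35 to 65.9 ± 3.62 CPM (0.82 ± 0.05). ANAPC10, which helps to bind substrates (-0.80 ± 0.12), and ANAPC16 (-0.71 ± 0.05) fell. Each of the 4 had an edgeR adjusted p of 6.48e-07 or less. Of 11 genes for other APC/C activators, ubiquitin-conjugating enzymes and inhibitors, 4 were higher, 5 lower and 2 not past the test, with a median of -0.09. UBE2S, the enzyme that extends ubiquitin chains on APC/C substrates, fell from 129.5 to 54.1 CPM (-1.25 ± 0.04), and MAD2L2 fell by 1.21 ± 0.06 (edgeR adjusted p of 2.62e-17 or less for both). TRIP13, which takes the checkpoint complex apart, rose by 0.80 ± 0.09 (edgeR adjusted p = 8.85e-10). FBXO5, the inhibitor EMI1, fell by 0.51 ± 0.14 (edgeR adjusted p = 0.00173), a call lost without untreated replicate 2 (0.063). FZR1, the activator that takes over from CDC20 at the end of mitosis, chosen here as the counterpart of CDC20 with its value known, fell by 0.23 ± 0.05 (edgeR adjusted p = 1.18e-04). Per kilobase, CDC20 stood at 1.54 and 1.55 times FZR1 untreated and at 0.942 and 0.790 times FZR1 after the drug.

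Close relatives of the 10 genes moved both ways. Of 18 paralogs 16 were tested, and 7 were higher, 5 lower and 4 not past the test, with a median of 0.22, where 38% of all tested genes were higher and 39.3% lower. AURKC, the germ-line Aurora kinase, fell from 2.45 ± 0.308 to 0.607 ± 0.0231 CPM (-2.005 ± 0.30, edgeR adjusted p = 4.80e-07). Among the polo-like kinases, PLK2, a kinase of the stress response, rose from 20.6 ± 0.891 to 49.1 ± 0.904 CPM (1.26 ± 0.06) and PLK4, which starts centriole duplication, by 0.70 ± 0.15. PLK3 did not pass the test (0.12 ± 0.06, edgeR adjusted p = 0.0695), though it did with library totals (0.00994) and without untreated replicate 1 (0.0269) or abemaciclib replicate 1 (0.0455). PLK5 fell from 1.01 to 0.272 CPM (-1.87 ± 0.42). CDK2 (-0.69 ± 0.05) and CDK3 (-1.05 ± 0.20) fell. The calls for PLK2, PLK4, PLK5, CDK2 and CDK3 had an edgeR adjusted p of 2.16e-04 or less.

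Of the 7 tested NEK kinases in that list 5 rose and 0 fell. NEK6 (-0.09 ± 0.04) and NEK9 (0.36 ± 0.04), named here with their values known, are counted above among the PLK1 partners. NEK10 rose from 1.96 ± 0.313 to 10.5 ± 1.08 CPM (2.44 ± 0.15, edgeR adjusted p = 2.92e-15). NEK4 (0.35 ± 0.09), NEK7 (0.31 ± 0.09), NEK8 (0.34 ± 0.13) and NEK11 (0.43 ± 0.12) rose by less, with an edgeR adjusted p of 0.0157 or less. The call for NEK4 was lost without abemaciclib replicate 2, and that for NEK8 with DESeq2 and without untreated replicate 2 or abemaciclib replicate 2. NEK1 (0.00 ± 0.11) and NEK3 (0.04 ± 0.27) did not pass. CCNB3 had 3 to 14 counts per library and fell by 1.69 ± 0.61 (edgeR adjusted p = 0.0129), a call that did not hold with DESeq2 or without untreated replicate 1, untreated replicate 2 or abemaciclib replicate 2. CDC20B, at 9 to 19 counts, did not pass (0.79 ± 0.46).

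MELK's own family also moved both ways. The list held 15 genes, other AMPK-related kinases and STK11, which activates most of that family. Of these, 5 were higher, 8 lower and 2 not past the test, with a median of -0.25. BRSK1, a kinase of neuronal polarity, fell from 71.3 ± 0.133 to 22.4 ± 1.03 CPM (-1.68 ± 0.05). BRSK2 (-1.85 ± 0.44, from 29 and 34 counts to 3 and 14) and NUAK1 (-1.40 ± 0.14) fell as well. MARK1, which loosens microtubule-associated proteins, rose from 4.96 ± 0.626 to 10.7 ± 0.549 CPM (1.11 ± 0.12). These 4 had an edgeR adjusted p of 3.73e-04 or less.

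Phosphatases that reverse mitotic phosphorylation moved both ways. Among 16 of them 5 were higher and 7 lower, and 4 had no call, with a median of -0.04. The scaffold subunits of PP2A rose, PPP2R1B from 3.95 ± 0.506 to 8.28 ± 0.192 CPM (1.06 ± 0.14) and PPP2R1A from 168.7 ± 2.97 to 251.4 CPM (0.58 ± 0.03). The PP1 catalytic subunit PPP1CB (-0.45 ± 0.04) and the PP1 inhibitor PPP1R2 (-0.47 ± 0.08) fell. Each of these had an edgeR adjusted p of 1.10e-05 or less.

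Among factors that switch G2/M genes on or off, 5 of 14 were higher, 7 lower and 2 not past the test, with a median of -0.19. Of the MuvB core, shared by the repressing and activating complexes, LIN9 rose from 1.26 ± 0.00448 to 3.44 ± 0.519 CPM (1.46 ± 0.23) and LIN54, the subunit that contacts the CHR, by 0.63 ± 0.14. LIN52 was also higher (0.44 ± 0.09), while LIN37 (-0.44 ± 0.08) and RBBP4 (-0.18 ± 0.04) of the same core were lower. The pocket protein gene RBL1 (p107) rose from 6.08 ± 0.218 to 15.8 ± 0.0526 CPM (1.38 ± 0.10), RBL2 (p130) fell by 0.37 ± 0.05, and E2F5 fell from 7.98 ± 1.12 to 2.96 ± 0.316 CPM (-1.42 ± 0.15). All 8 had an edgeR adjusted p of 2.12e-04 or less. FOXM1, an activator of G2/M genes, named with its value known like LIN52, LIN37, RBBP4 and RBL2, fell by 0.60 ± 0.06 (edgeR adjusted p = 1.29e-10). MYBL2 of the same list, also named with its value known, did not pass the test (-0.14 ± 0.07, edgeR adjusted p = 0.0635). Whether MYBL2 passed depended on the libraries kept. Its log2 fold change was -0.22 without untreated replicate 2 and -0.18 without abemaciclib replicate 1.

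Of 8 proliferation markers 3 were higher, 4 lower and 1 not past the test, with a median of -0.19. MKI67, the gene of Ki-67, fell from 48.7 ± 1.70 to 12.1 ± 2.90 CPM (-2.04 ± 0.13), a drop close in size to that of AURKB. TOP2A, the topoisomerase of mitotic chromosomes (-1.23 ± 0.07), and RRM2, of ribonucleotide reductase (-1.18 ± 0.07), fell by amounts near those of CDK1 and CDC20. MCM2, of the replicative helicase, rose from 35.2 ± 0.673 to 94.5 ± 2.39 CPM (1.42 ± 0.04), close to the rise of MELK. The 4 genes had an edgeR adjusted p of 2.04e-05 or less.

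**Figure D5:**
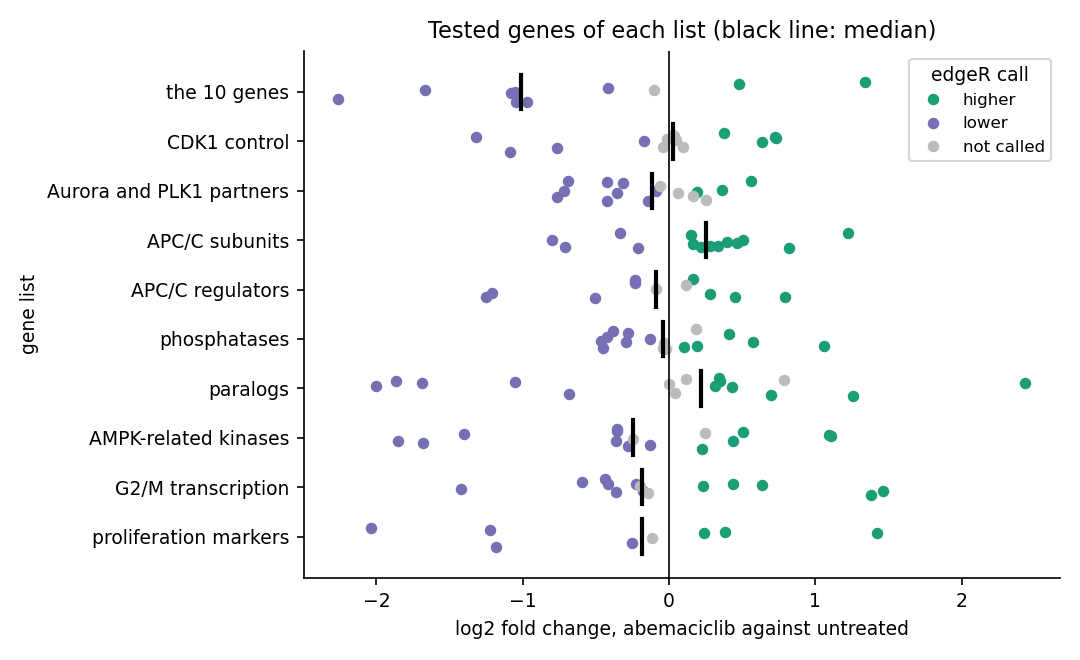
Log2 fold change, abemaciclib against untreated, of every tested gene among the 10 genes and in each pathway list (marker lists of cell types are not drawn), coloured by the edgeR call, with a black line at the median. The median of the 10 genes is -1.01, and those of the 9 pathway lists drawn lie between -0.25 (AMPK-related kinases) and 0.25 (APC/C subunits).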

How the data were processed

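Poly-A RNA from U87MG spheres (4 libraries, 2 per group) was prepared with a stranded mRNA kit, per the labels' protocols. The authors deposited 1 file per library with expected counts, estimates of the reads of each gene that need not be whole, not scaled for depth or length. STAR 2.7.2b, RSEM 1.3.1 and GRCh38 are named in the submitters' processing notes, without roles, and the annotation release, trimming and strand setting are not given in the sources used here. Between 6.13% and 6.70% of the values were not whole, and all were rounded.

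Genes were tested with edgeR 4.0.16 (limma 3.58.1, R 4.3.3): filterByExpr, TMM scaling, robust quasi-likelihood F test, group as the only term, two-sided, Benjamini-Hochberg adjustment over 17207 genes. The SE is the log2 fold change divided by the square root of F. CPM are TMM-scaled except for summed marker levels. In the shallowest library 3 counts are 0.127 CPM and in the deepest 0.0898 CPM. Coordinates and exon lengths came from GENCODE 29 (GRCh38), which matched 96.4% of the identifiers and all 10 genes.

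The 10 genes and the other 14 gene lists were chosen with earlier results of these data known. Named beside the 10 genes are all tested paralogs and, in each pathway list, up to 4 called genes with the largest change whose groups do not overlap. FZR1, FOXM1, MYBL2, LIN52, LIN37, RBBP4, RBL2, NEK6, NEK9, the marker genes and the genes with overlapping exons or copies are named outside that rule. Alternatives were RLE scaling, library totals, DESeq2 1.42.0, no low-count filter, a replicate block, leaving out mitochondrially encoded genes and leaving out each library.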

Additional observations from a re-analysis of the deposited data

How the results depend on the processing

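All 10 genes kept their direction and their side of the threshold under each of the 10 alternatives (RLE scaling, library totals, DESeq2, no low-count filter, a replicate block, no mitochondrially encoded genes, and each library left out). With 1 library left out, the lone library is assumed to vary like the others. Log2 fold changes ranged from -2.48 to -1.99 for AURKB, from -1.87 to -1.46 for NEK2 and from 1.24 to 1.43 for MELK. The number of the 10 genes at least 2-fold lower was 3 to 6 when 1 library was left out. With library totals in place of TMM, 7 genes of CDK1 control and 5 Aurora and PLK1 partners were called higher, and the median log2 fold change of all genes was 0.04. With the replicate number as a block, 6657 genes were called lower and 6451 higher, against 6757 and 6542 without it, and no call among the 10 genes changed. The labels do not say that equal numbers pair cultures, and the deviations of same-numbered libraries were uncorrelated (r = -0.0014 across genes). AURKB and NEK2 rest on 57 to 74 counts per treated library, so their ratios are the least precise of the 10.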
